A study of Mus musculus with 6 samples.

Results

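Newly formed oligodendrocytes are cells that have left the cycling precursor pool and are extending processes but have not yet wrapped axons with mature myelin. The stage is recognised by transcripts that rise briefly between the precursor and the myelinating cell, among them a receptor that holds cells back from maturing (Gpr17), ectoenzymes of the cell surface (Enpp6, Neu4) and kinases and adaptors that reshape the cytoskeleton (Fyn, Lims2). In the adult brain such cells are few beside mature oligodendrocytes, and several of these transcripts persist at lower levels in mature cells or are also made by astrocytes, neurons or endothelial cells.

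The genes described here are 10 markers of this stage, Gpr17, Enpp6, Bcas1, Itpr2, Fyn, Neu4, Rras2, Lims2, Cnksr3 and Frmd4a, picked by name from the 46983 annotated features of the table. Each matched 1 feature, and all 10 passed the filter on low values. RNA was sequenced from oligodendrocytes isolated from mouse brain and not cultured, in 3 WT control and 3 Qk-KO libraries. Qk-KO mice were Plp-CreERT2;QKLoxP/LoxP animals, genotype Qk-/- in the labels, in which a tamoxifen-activated Cre under the Plp promoter, active in cells of the oligodendrocyte lineage, deletes a floxed part of Qk. Qk encodes quaking, an RNA-binding protein of myelinating glia. Mice of both groups were FvB/C57BL6 hybrids, received tamoxifen at 8 weeks and were sampled 4 days later; whether the controls carried Cre or a floxed allele is not given in the sources used here, nor is the number of mice behind a library, so p-values measure the spread between libraries.

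Values are the authors' regularized log2 values, in which 1 unit is a doubling and weakly counted genes are drawn toward their own mean. A gene was called when its Benjamini-Hochberg adjusted p in a limma fit of all 15153 tested features was under 0.05, and changes are given as the Qk-KO mean less the WT mean, plus or minus limma's standard error (SE), for n = 3 libraries per group. The libraries were uneven: ribosomal RNA features took 59.8% to 64.8% of the signal in the WT libraries and Qk-KO replicate 1 but 1.88% to 2.23% in Qk-KO replicates 2 and 3, and estimated reads outside them were 8700000 to 13100000 and 70000000 to 77100000, respectively. Estimated reads for a marker in 1 library ran from 57.7 (Neu4, WT replicate 2) to 25143 (Gpr17, Qk-KO replicate 2). Qk at the level of the whole gene was 15.41, 15.67 and 15.31 in WT, against 16.10, 15.62 and 15.30 in Qk-KO (limma adjusted p = 0.567), a value that cannot separate deleted from retained exons. All libraries held RNA of other cells. Of 15 astrocyte markers 14 fell and 1, with a positive change, was not called. The authors' deposited table called 1 astrocyte marker higher. The summed log2 level of the 15 was 17.34 to 17.65 in WT, against 14.41 to 15.07 in Qk-KO. All 15 endothelial and 9 of 12 mural cell markers fell, with summed levels of 15.57 to 16 (endothelial) and 14.66 to 14.93 (mural) in WT, against 14.83 to 14.97 and 13.85 to 13.97 in Qk-KO. Of 15 microglia markers 8 rose (13.18 to 13.86 in WT, 14.53 to 16.52 in Qk-KO). The count was 4 without WT replicate 1 and 2 without WT replicate 2 or 3. It was 10, 7 and 8 without Qk-KO replicates 1, 2 and 3, respectively. Without a filter it was 3, as in the authors' deposited table. Library type (high or low ribosomal content) was also fitted as a term. Only Qk-KO replicates 2 and 3 were low, so the change is then that of Qk-KO replicate 1 against WT. With this term limma called none of the 15 microglia markers, and 2 were higher at an unadjusted p under 0.05. None of the markers of these lists was at 0. Their part in the results below was not tested. Falls are relative to the typical gene. Scaling by library size alone uses totals that include the ribosomal features, so it also carries the difference in ribosomal share between the libraries. On that scale the median change of all features moved to 1.09 and 97.3% of calls were rises. Limma called lower none of the markers, their paralogs, or the precursor, endothelial or mural genes. Nor did it call lower any gene of the Fyn, calcium and integrin-linked kinase lists. At an unadjusted p under 0.05, 2 precursor genes and 1 gene of the Fyn list were lower on that scale and none of the other genes just named; 9 of the 15 astrocyte genes were still called lower.

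Of the 10 markers 3 rose in the Qk-KO libraries, Lims2, Bcas1 and Rras2, and 1, Itpr2, fell. The other 6 were not called. Over all tested features 28.6% were called, 13.8% higher and 14.8% lower. The groups did not overlap for 5 markers, these 4 and Cnksr3, against 46.3% of all features (4 markers higher, 24.5% of features; 1 lower, 21.8%), so a lack of overlap was about as common among the markers as elsewhere. The median change of the 10 markers was 0.32, beside 0.03 for all features tested. The authors' deposited table also called 3 markers higher and 1 lower, against 13.7% and 14.2% of the features it tested (27.9% in all). In bulk RNA a change in the number of cells that make a transcript and a change in the transcript per cell cannot be told apart.

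**Figure D1:**
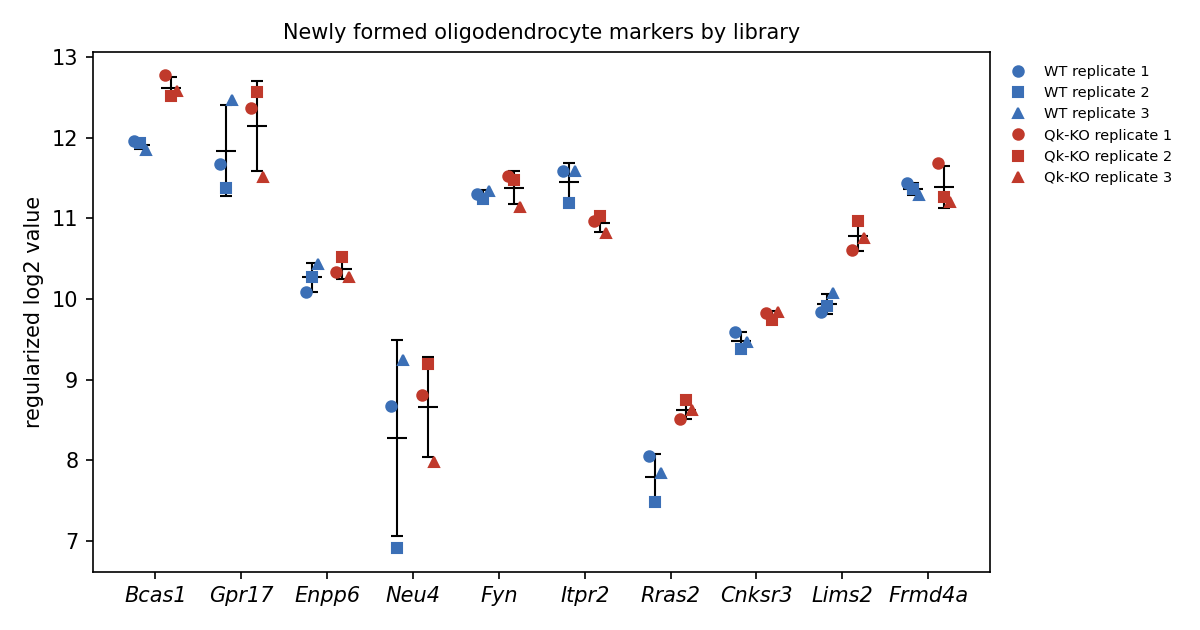
Regularized log2 value (vertical axis) of the 10 markers in each library, blue for WT and red for Qk-KO, with symbols for replicates 1 to 3 and bars for the group mean and SD (n = 3). The groups are apart for Bcas1, Rras2 and Lims2, and narrowly for Itpr2 and Cnksr3. Gpr17 and Neu4 spread over more than 1 unit within each group.

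By the mean per kb of merged exons in WT, Bcas1 was the most abundant of the markers and Neu4 and Rras2 the least. On this scale of normalized values per kb, Bcas1 had 978 to 1055 in the WT libraries and Gpr17 511 to 1092, so that these overlapped, as Gpr17 did with Fyn. Fyn followed with 556 to 597 and Lims2 with 299 to 354. Enpp6 (170 to 216), Itpr2 (158 to 209) and Cnksr3 (173 to 201) overlapped one another in WT, so their order is not set by these libraries. Frmd4a had 108 to 119, Neu4 25.9 to 130 and Rras2 50.2 to 74.5, and the wide range of Neu4 overlapped those of Frmd4a and Rras2. In Qk-KO the first 4 places were the same by mean level, while Cnksr3 moved from the seventh to the fifth place. The order also depends on the exon lengths, which run from 3060 bases for Lims2 to 23350 for Frmd4a when the exons of all annotated transcripts are merged.

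**Figure D2:**
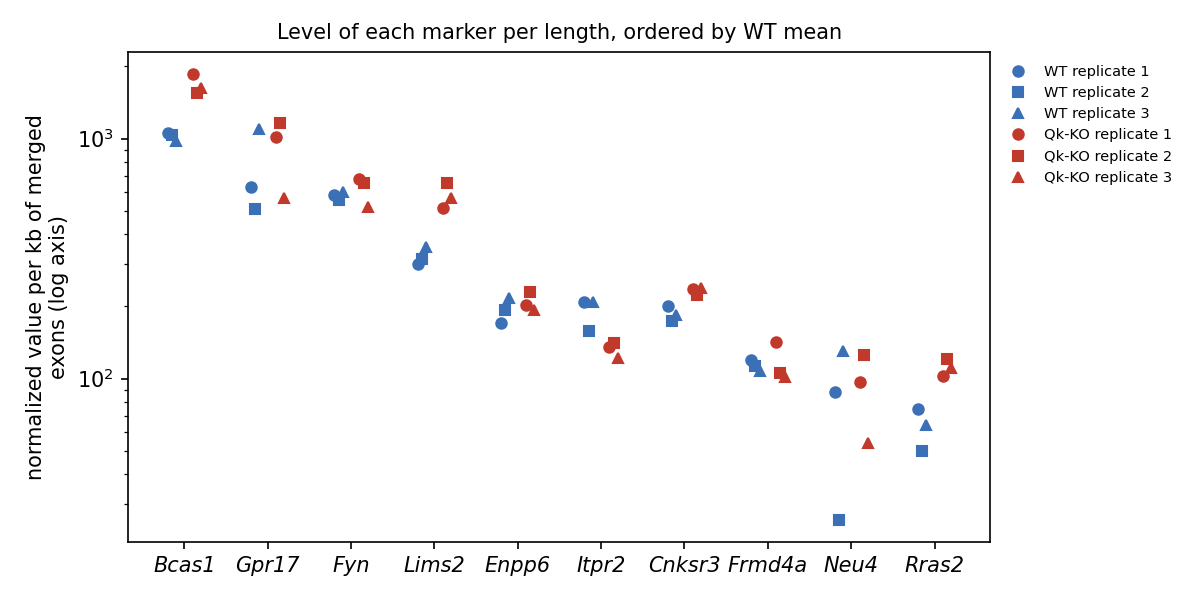
Normalized value per kb of merged exons (log axis) for each marker and library, ordered by the WT mean, blue for WT, red for Qk-KO. Bcas1 lies between 978 and 1055 in WT, and Enpp6, Itpr2 and Cnksr3 overlap near 158 to 216.

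Quaking binds RNA at a core sequence usually written ACTAAC or ACTAAT in DNA letters, so the annotated 3′ UTRs of the markers were searched for these letters on the mRNA strand. Matches were present in 4 markers, Frmd4a (3), Enpp6 (2), Gpr17 (1) and Neu4 (1), all of them ACTAAC, and none of these 4 was called. Of the 13321 tested protein-coding genes with an annotated 3′ UTR 33.6% held a match, with 0.344 matches per kb; the density was 0.974 per kb in Frmd4a, 0.561 in Enpp6, 0.343 in Neu4 and 0.251 in Gpr17. Among genes with a 3′ UTR within 1.25-fold of the same length, 60.9% held a match for Frmd4a, 65.8% for Enpp6, 58.9% for Neu4 and 69.0% for Gpr17, so a match is common at these lengths. The UTRs of Bcas1, Fyn, Rras2, Lims2, Cnksr3 and Itpr2 did not hold these letters; that of Itpr2 was only 191 bases long. A match is a description of sequence and does not show binding. The windows of 30 bases below show matches in capitals, 1 each in Enpp6 and Neu4 and 2 in Frmd4a, chosen because they lie in different markers and include the overlapping pair of Frmd4a (mm10, plus strand, chr2:4612436-4612465 for Frmd4a, chr8:47094000-47094029 for Enpp6 and chr1:94026708-94026737 for Neu4, all in 3′ UTR).
Frmd4a: aaccacttctatACTAACTAACcagtgcac
Enpp6: ctgtcggtgaccACTAACttccctcagaca
Neu4: gttttgtgtcagACTAACtgggtcttaaag

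Bcas1 encodes a basic cytosolic protein of newly myelinating oligodendrocytes that remains in myelin. The gene lies on chromosome 2, 170346991 to 170427845, minus strand (mm10). In WT replicates 1, 2 and 3 it measured 11.96, 11.94 and 11.85 on the log2 scale, and in Qk-KO replicates 1, 2 and 3 it measured 12.78, 12.52 and 12.58; values of other genes follow the same order. Every Qk-KO library lay above every WT library, and the WT values were within 0.11 of each other. The change was 0.71 ± 0.12, or 1.64-fold (95% interval 1.36 to 1.97), with a limma adjusted p of 0.00369. Qk-KO replicate 1 alone against WT, all libraries of high ribosomal content, gave 0.86 (adjusted p = 0.00551; 15.5% of features were called in that comparison, 6.17% higher). In that comparison, here and below, the Qk-KO arm is 1 library, so the p rests on the spread of the WT libraries and assumes that the lone library varies like them. The change with library type as a term rests on the same Qk-KO library and is not a separate check of its size. The pooled standard deviation within groups, 0.10, was above that of only 14.2% of features of similar mean.

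Lims2, also called PINCH2, encodes a LIM-domain adaptor that joins integrin-linked kinase to the actin cytoskeleton. Its values were 9.84, 9.91 and 10.08 in WT, against 10.61, 10.96 and 10.76 in Qk-KO, again without overlap. The rise was 0.83 ± 0.13, or 1.78-fold (1.45 to 2.20), with a limma adjusted p of 0.00286. It was 0.67 in Qk-KO replicate 1 alone against WT (adjusted p = 0.0280, with the same limit of 1 library). Lims2 (chromosome 18, 31922290 to 31958619, plus strand) contains Gpr17 (31942997 to 31949636, minus strand) within its bounds, and the exons of the 2 genes share 188 bases. Since the counting is not stated to use strand, reads from the shared stretch cannot be assigned to 1 of them with certainty. Both genes were highest in WT replicate 3 among the WT libraries and in Qk-KO replicate 2 among the Qk-KO libraries, while in Qk-KO replicate 3 Lims2 was above all WT libraries and Gpr17 was not. The part of shared reads in these values was not tested.

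Of 15 tested genes of the complex of integrin-linked kinase and of focal adhesions 1 rose and 5 fell, with a median change of -0.29; in Qk-KO replicate 1 alone against WT limma called none higher (1 at an unadjusted p under 0.05) and 6 lower. The gene that rose was Ilk, the kinase itself, with a change of 0.44 and an adjusted p of 0.0167; it was named after its value was seen. That call was lost when WT replicate 1 (0.0663) or 3 (0.0572) or Qk-KO replicate 2 (0.0754) was left out and with library type as a term (0.115). The fallers included Vcl, vinculin, by 1.5 ± 0.11 (limma adjusted p = 0.000113), Parva, alpha-parvin, by 0.99 ± 0.15 (0.00227) and Fermt2, kindlin-2, by 0.86 ± 0.14 (0.00368). Itgav, integrin alpha V, fell by 0.70 ± 0.13 (0.00582). Its call was lost with library type as a term, where the change was -0.54. The paralog Lims1 had a change of -0.44 ± 0.16 and was not called (0.0718). Endothelial, mural and astrocyte markers fell in the same libraries, with the levels given above.

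Rras2 encodes TC21, a small GTPase of the R-Ras group. It was at 8.05, 7.48 and 7.84 in WT, against 8.52, 8.74 and 8.62 in Qk-KO, where all 3 libraries exceeded the highest WT library. The rise was 0.84 ± 0.17, or 1.79-fold (1.35 to 2.36), with a limma adjusted p of 0.00992. Qk-KO replicate 1 alone against WT gave 0.73, a rise of similar size that was not called. With library type as a term the change is this same value, and it was not called either (limma adjusted p = 0.0907, where 14.9% of features were called). The nearest relatives went down or were not called: Mras, a GTPase of the same group, fell by 1.81 ± 0.11 (limma adjusted p = 8.73e-05) and Rras had a change of -0.63 ± 0.21 (0.0557). Mras was 10.77, 10.72 and 10.55 in WT, against 8.83, 8.82 and 8.96 in Qk-KO. The difference between the changes of Rras2 and Mras was not tested.

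Of 10 genes of the oligodendrocyte lineage, here called pan-lineage, 5 rose, among them Sox8, Olig2, Zfp488 and Zfp536. The other 5, Olig1, Sox10, Myrf, Cnp and Ugt8a, were not called, and the median change of the 10 was 0.54. The set is not neutral as to stage, since Cnp is also among the mature markers below. The changes were 0.89 ± 0.13 for Sox8, 0.67 ± 0.13 for Olig2, 0.97 ± 0.17 for Zfp488 and 0.82 ± 0.14 for Zfp536 (limma adjusted p = 0.00204, 0.0071, 0.00542 and 0.00384). When every library was centred on the median of these 10 genes, no marker was called higher by limma (0 of 10; 1 was lower, Itpr2, and at an unadjusted p under 0.05 there were 1 higher and 2 lower), where 36.3% of all features were called. The changes on that scale were 0.42 for Lims2 (adjusted p = 0.0611), 0.42 for Rras2 (0.188) and 0.29 for Bcas1 (0.153). The centring moved the median of all features to -0.38 and the share of calls that were rises from 48.2% to 6.88%. Values on that scale are relative to these 10 genes, of which 5 rose, and do not measure a stage.

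**Figure D3:**
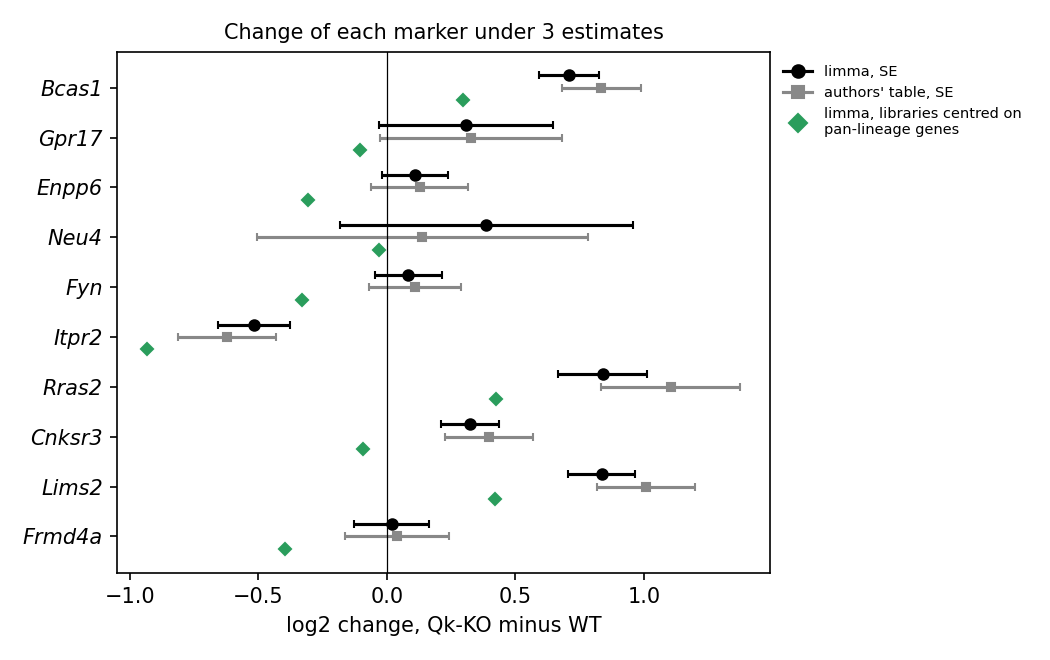
Log2 change, Qk-KO minus WT (horizontal axis), of each marker in the limma fit (black, with SE), in the authors' deposited table (grey, with SE) and after centring each library on the pan-lineage genes (green diamonds, no error drawn). Lims2, Rras2 and Bcas1 lie at 0.71 to 0.84 in the first and at 0.29 to 0.42 in the last, and Itpr2 is below 0 in all 3.

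Itpr2 encodes the type 2 inositol trisphosphate receptor, a calcium release channel of the endoplasmic reticulum that also serves as the main such receptor of astrocytes. It was 11.60, 11.19 and 11.59 in WT, against 10.97, 11.03 and 10.82 in Qk-KO. All Qk-KO libraries were below all WT libraries, with WT replicate 2 the nearest to them. The change was -0.52 ± 0.14, a level of 0.698 times WT (0.558 to 0.874), with a limma adjusted p of 0.0276. This call was the least stable of the 4. It was lost when any 1 of 4 libraries was left out, WT replicates 1 and 3 and Qk-KO replicates 2 and 3 (adjusted p = 0.102, 0.104, 0.0652 and 0.0595), without a filter on low values (0.0589) and in Qk-KO replicate 1 alone against WT (-0.49, adjusted p = 0.126; 9.37% of features were called lower there). Scaled by library size alone, with the ribosomal features in the total, its change was 0.54 (0.384, where 16.1% of features were called).

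The related receptors fell too. Itpr1 was 11.64, 11.48 and 11.75 in WT, against 10.73, 10.91 and 11.10 in Qk-KO, a fall of 0.71 ± 0.13 (limma adjusted p = 0.00662). Itpr3 fell by 0.64 ± 0.17 (0.0283). That call was lost when WT replicate 1 (0.101) or 3 (0.104) or Qk-KO replicate 2 (0.0922) was left out. It was also lost with library type as a term, where the change was -0.69. Of 20 tested genes of inositol phosphate and calcium store signalling 10 fell and 1 rose, with a median change of -0.52. The phospholipase genes Plcd4, Plcd1 and Plcb1 had changes of -2.07 ± 0.15, -1.52 ± 0.15 and -1.16 ± 0.15, and the kinase gene Itpkb of -1.38 ± 0.11. Their limma adjusted p-values were 0.000127, 0.000374, 0.00113 and 0.000185. The rise, of Gna11, a G protein subunit gene named after its value was seen, was 0.44 ± 0.10 (0.0146) and was not called when WT replicate 1 or 3 or Qk-KO replicate 2 was left out. In Qk-KO replicate 1 alone against WT 9 of the 20 fell. Astrocyte markers fell by a median of 2.81 in the same libraries.

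Gpr17 encodes an orphan G protein-coupled receptor related to purine and cysteinyl leukotriene receptors, which is switched on in committed precursors and must be turned off for maturation. Its values were 11.68, 11.37 and 12.47 in WT, against 12.37, 12.56 and 11.52 in Qk-KO. The groups overlapped, and each spanned more than 1 log2 unit. The change of 0.31 ± 0.34 had a limma adjusted p of 0.519 and a 95% interval from -0.47 to 1.09, which leaves room for a 2.13-fold rise. Neu4, a sialidase that trims sialic acids from glycans, varied more: 8.67, 6.91 and 9.24 in WT, against 8.81, 9.19 and 7.97 in Qk-KO. Its change was 0.39 ± 0.57 (adjusted p = 0.642, interval -0.93 to 1.70), and it turned to -0.30 without WT replicate 2. The pooled standard deviations of Gpr17 (0.56) and Neu4 (0.97) exceeded those of 95.9% and 99.4% of features of similar mean.

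In 3 markers part of the order of the libraries was one also common among precursor genes. In Gpr17, Neu4 and Fyn the lowest WT library was replicate 2, the highest WT library replicate 3 and the lowest Qk-KO library replicate 3, an order chosen for description after the values were seen. That order was found in 3 of the 10 markers, 9 of 13 precursor markers and 5 of 18 other newly formed markers. It was found in none of 22 mature markers, and in 4.87% of all tested features. The WT libraries spanned only 0.10 in Fyn, against 1.10 in Gpr17 and 2.33 in Neu4. Pdgfra, the growth factor receptor that defines precursors, was 10.24, 9.03 and 11.93 in WT, against 11.24, 10.79 and 8.34 in Qk-KO. Cacng4, a precursor-enriched subunit of AMPA receptor complexes, was 8.68, 8.42 and 9.89 in WT, against 9.20, 8.17 and 6.58 in Qk-KO. Among the Qk-KO libraries Pdgfra and Cacng4 were highest in replicate 1, as was Fyn, whereas Gpr17 and Neu4 were highest in replicate 2. Pdgfra and Cacng4 were both within the WT range in Qk-KO replicate 1 and lowest of all in Qk-KO replicate 3. The median of the microglia markers was furthest above the WT mean in that library (1.03 and 1.17 in Qk-KO replicates 1 and 2). Pdgfra and Cacng4 were not called and, with C1ql1, were named after their values were seen.

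**Figure D4:**
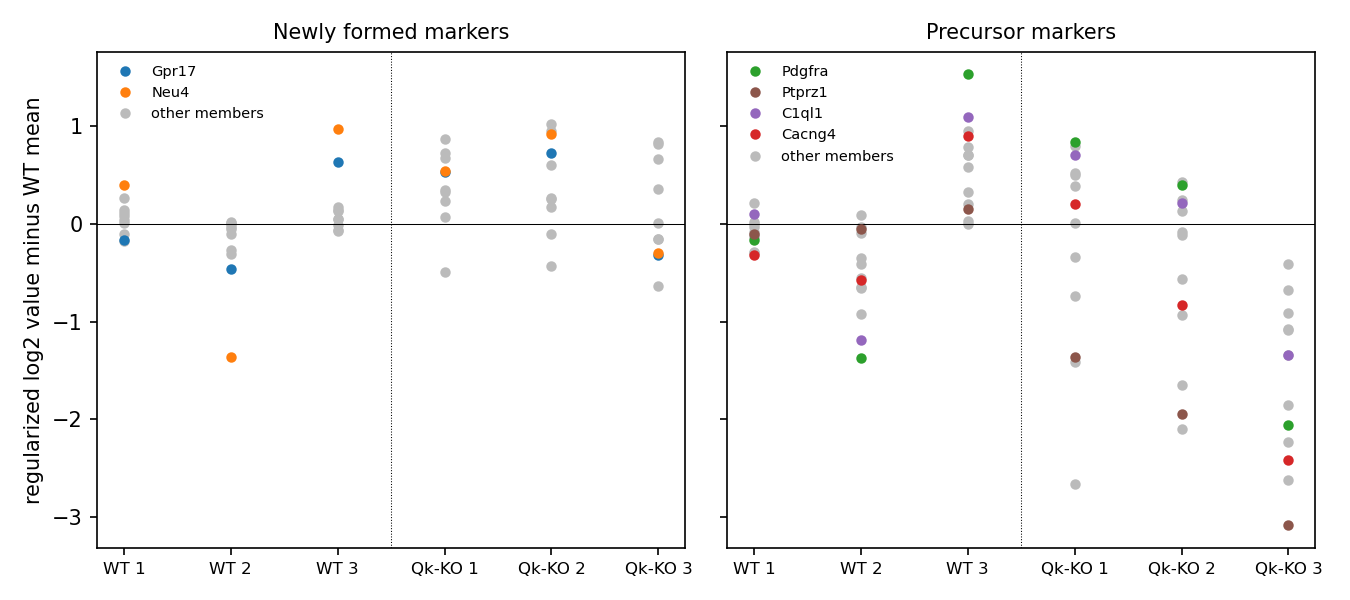
Regularized log2 value minus the WT mean of the gene (vertical axis) in each library, for the 10 newly formed markers (left) and 13 precursor markers (right), 1 point per gene. Gpr17 and Neu4 are below the WT mean in WT replicate 2 and Qk-KO replicate 3 and above it in WT replicate 3, as are Pdgfra, C1ql1 and Cacng4.

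Enpp6, a choline-specific phosphodiesterase of the cell surface, is used in mouse brain to find newly forming oligodendrocytes. It was at 10.09, 10.28 and 10.44 in WT, against 10.34, 10.52 and 10.27 in Qk-KO. The groups overlapped and the change was 0.11 ± 0.13 (limma adjusted p = 0.557), with a 95% interval from -0.19 to 0.41, so a rise above 1.33-fold lies outside the interval. Of its paralogs Enpp5 rose by 0.69 ± 0.13 (0.00591). Enpp2, which encodes autotaxin, and Enpp4 and Enpp1 had changes of 0.19 ± 0.21, 0.24 ± 0.13 and 0.06 ± 0.12 and were not called (0.519, 0.183 and 0.746). Neu1, the lysosomal relative of Neu4, rose by 0.52 ± 0.16 with a limma adjusted p of 0.0484, a call that was lost without any 1 of the libraries except Qk-KO replicate 1 (0.106 to 0.144), and its change in Qk-KO replicate 1 alone was 0.17.

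Fyn encodes the Src family kinase that links axonal contact to process outgrowth and local synthesis of myelin basic protein. Its values were 11.30, 11.24 and 11.35 in WT, against 11.53, 11.47 and 11.14 in Qk-KO. Qk-KO replicates 1 and 2 lay above the WT libraries and replicate 3 below them. The change was 0.08 ± 0.13 (limma adjusted p = 0.656, interval -0.21 to 0.38). The broadly expressed family members Yes1 and Src fell by 0.76 ± 0.16 and 0.68 ± 0.18 (0.0121 and 0.0265). The call of Src was lost when WT replicate 2 (0.0662) or 3 (0.0764) or Qk-KO replicate 2 (0.0522) was left out. It was also lost with library type as a term, where the change was -0.83. Lyn, known from myeloid cells, had a change of 0.34 ± 0.33 and was not called.

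Of 26 genes that act upstream or downstream of Fyn 3 rose and 8 fell, with a median change of -0.26. Ptpra, a phosphatase that activates Fyn, rose by 0.83 ± 0.12 (limma adjusted p = 0.00194). Vav3, a guanine nucleotide exchange factor, fell by 1.65 ± 0.23 (0.0017), Ptprz1, a receptor phosphatase of precursors and astrocytes, by 2.13 ± 0.38 (0.00505) and Itga6, the laminin-binding integrin subunit, by 1.09 ± 0.21 (0.00709). In Qk-KO replicate 1 alone against WT 2 rose and 3 fell. The count of falls was 4 without WT replicate 1 or 3, 5 without WT replicate 2 or Qk-KO replicate 2, 14 without Qk-KO replicate 1 and 2 with library type as a term.

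Cnksr3, a scaffold protein of the connector enhancer of KSR family that takes part in aldosterone-regulated sodium transport, lay just outside the threshold. It was 9.59, 9.38 and 9.47 in WT, against 9.83, 9.74 and 9.84 in Qk-KO, without overlap. The change was 0.32 ± 0.11, or 1.25-fold (1.05 to 1.49), with a limma adjusted p of 0.0623 and, in the authors' deposited table, of 0.0674. Frmd4a, a FERM-domain scaffold of cell polarity, was 11.45, 11.37 and 11.30 in WT, against 11.69, 11.26 and 11.21 in Qk-KO. Qk-KO replicate 1 was the highest of the 6 libraries and the other Qk-KO libraries were below all WT libraries. Its change of 0.02 ± 0.15 (limma adjusted p = 0.940) had an interval from -0.32 to 0.36. The paralog Frmd4b, at 11.89, 12.04 and 11.80 in WT, against 12.94, 12.80 and 12.71 in Qk-KO, rose by 0.91 ± 0.12 (0.00152) and by 1.03 in Qk-KO replicate 1 alone (0.0042).

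Over the paralogs of all 10 markers, 23 of 27 passed the filter; 3 rose, Frmd4b, Enpp5 and Neu1, and 5 fell, Mras, Itpr1, Itpr3, Yes1 and Src, with a median change of -0.28. The falls numbered 3 without WT replicate 3 or Qk-KO replicate 2, without a filter and with library type as a term. For Gpr17 the tested relatives P2ry12, P2ry13, P2ry14, Cysltr1 and Cysltr2 had changes from -0.37 to 0.38 and none was called. P2ry12 and P2ry13 are known for their expression in microglia.

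Other genes described for this stage gave a similar mixture. Of 18 tested genes 5 rose and 1 fell, with a median change of 0.29 (in Qk-KO replicate 1 alone against WT limma called 4 higher and none lower, and 1 lower at an unadjusted p under 0.05). The rises numbered 2 when WT replicate 1 or 3 or Qk-KO replicate 2 was left out. Rap2a, a small GTPase, was 10.54, 10.80 and 10.66 in WT, against 11.44, 11.65 and 11.71 in Qk-KO and rose by 0.93 ± 0.12 (limma adjusted p = 0.00136). Chn2, beta-chimaerin, a Rac inactivator, rose by 0.73 ± 0.12 (0.00437). Slc12a2, a sodium-potassium-chloride cotransporter, rose by 0.80 ± 0.20 (0.0209), a call lost when WT replicate 1 (0.0764) or 3 (0.0864) or Qk-KO replicate 2 (0.0897) was left out. The other rises were those of Casr, the calcium-sensing receptor, with a change of 0.62 (0.0304), and Ust, a sulfotransferase gene, with 0.38 (0.0470), both named after their values were seen. The Casr call was lost without any 1 of 4 libraries (0.0639 to 0.128) and the Ust call without any 1 of 5 (0.0687 to 0.168). The faller was Tcf7l2, at 9.67, 9.48 and 9.69 in WT, against 9.02, 7.36 and 7.10 in Qk-KO, lower in the Qk-KO replicates of low ribosomal content than in replicate 1. Its adjusted p of 0.0199 rose above the threshold without any 1 of the WT libraries or Qk-KO replicate 2 (0.0555 to 0.0706).

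Set beside the neighbouring stages, the 10 markers lay between precursor and mature genes. The median change was -0.31 for 13 precursor markers, of which 4 fell and none rose, and 0.70 for 22 mature markers, of which 11 rose and 4 fell; in Qk-KO replicate 1 alone against WT 4 precursor genes fell, and 8 mature genes rose and 4 fell. By library the median of the 10 markers was 0.44, 0.43 and -0.08 above the WT mean in Qk-KO replicates 1, 2 and 3. The precursor median was 0.21, -0.11 and -1.34 and the mature median 0.55, 0.69 and 0.73 in the same order. The precursor genes that fell were Gpr37l1, Sox5, Ptprz1 and Sox6, with changes of -2.46, -1.76, -2.13 and -1.17; Gpr37l1 and Ptprz1 are known from astrocytes too, and the call of Sox6 was lost without WT replicate 3 (adjusted p = 0.0676). The count of mature genes that rose was 6 when WT replicate 1 or 3 or Qk-KO replicate 2 was left out and 7 with library type as a term, and that of precursor genes that fell was 2 with that term. Gsn, gelsolin, rose by 2.37, S1pr5, a sphingosine-1-phosphate receptor, by 1.16 and Opalin, a myelin membrane protein, by 1.24. The mature genes that fell were Ptgds, Anln, Hapln2 and Klk6, with changes of -1.25, -0.98, -0.73 and -1.17, named after their values were seen; the call of Klk6 was lost when WT replicate 2 (0.0584) or 3 (0.0656) or Qk-KO replicate 2 (0.0575) was left out and that of Ptgds with library type as a term (0.0524). No test of the difference between these lists was made.

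**Figure D5:**
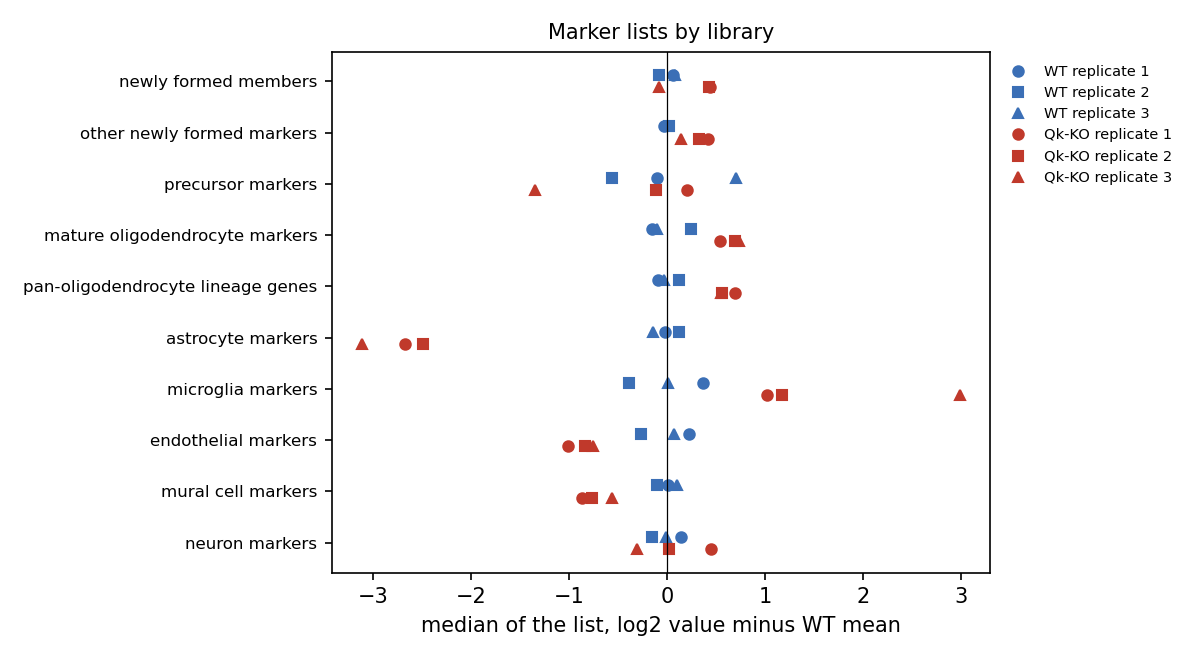
Median over each marker list of the log2 value minus the WT mean of the gene (horizontal axis), 1 point per library, blue for WT, red for Qk-KO. The 10 newly formed markers lie at 0.44, 0.43 and -0.08 in Qk-KO replicates 1, 2 and 3, and astrocyte markers lie furthest to the left.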

How the data were processed

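The submitters' processing notes name TopHat2 2.0.14, featureCounts, DESeq2 and FastQC and the build mm10, while strandedness, read length and annotation release are not stated in them. The authors deposited log2 values per library, which behave as DESeq2's regularized log2, a mean normalized count per feature (a signal averaged over all libraries), and their own comparison with a Wald score and p-values, per the file headers. All per-library columns were assigned by sample number.

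Because the values are not counts, the log2 values were fitted in R 4.3.3 by limma 3.58.1, with trended variances, no pseudocount and a single term for genotype. The test covered the 15153 features whose mean normalized count reached 20. The fit was tested on simulated data. Size factors and approximate reads were derived from the steps of the lowest mean normalized counts. Coordinates, exon lengths and 3′ UTRs came from GENCODE M21 on the same build; UTRs were those of the principal or else the longest coding transcript. Features of similar mean lay within 1.5-fold.

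The markers and gene lists were chosen with earlier results of these data known. Genes named were all markers, Qk, the tested paralogs and up to 4 called genes per list by adjusted p; others are said to have been chosen after their values were seen, and 1 gene is not reported here. Neuron markers, a further list, gave 2 rises among 13 tested genes and a median change of 0.03. The labels name no pairing of libraries by replicate number. Alternatives covered filters, models, scaling, library type and leaving out each library. Library type as a term and Qk-KO replicate 1 alone against WT estimate the same change.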

Additional observations from a re-analysis of the deposited data

How the results depend on the processing

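The count of called features was 4330 in the main fit, 2355 in Qk-KO replicate 1 alone against WT, 2447 with library size alone, 2258 with library type as a term, and 2370 to 5633 when 1 library was left out. The rises of Bcas1, Lims2 and Rras2 held without each library in turn, and 3 markers were called higher in every setting except Qk-KO replicate 1 alone and library type as a term (2 in each, without Rras2) and centring on pan-lineage genes (0 by limma). The number of markers called lower was 1 in the main fit and 0 by limma in Qk-KO replicate 1 alone, with library type as a term, with library size alone and without a filter, and 0 to 1 without 1 library; at an unadjusted p under 0.05 it was 1 in each of these except library size alone, where it was 0, and the authors' deposited table called 1. The sign of Itpr2 turned with library size alone (0.54), where the total includes the ribosomal features. There the median of all features moved to 1.09 and 97.3% of calls were rises. After centring on pan-lineage genes signs turned for Gpr17 (-0.11), Enpp6 (-0.31), Fyn (-0.33), Neu4 (-0.029), Cnksr3 (-0.092) and Frmd4a (-0.40). Frmd4a also turned with sample quality weights (-0.029) and ranged from -0.13 to 0.11 without 1 library, and Neu4 from -0.30 to 0.87. The cause of these changes was not tested. With the replicate number as a replicate block 4345 features, 3 rises and 1 fall were called. Same-numbered libraries correlated at 0.104, 0.0046 and 0.0821 in their deviations from the group means, against -0.121 to 0.0577 for the other pairs. With 3 libraries per group these values cannot decide whether the numbers pair the libraries, and the labels name no pairing. The lowest estimated read numbers were 57.7 for Neu4 and 85.7 for Rras2, both in WT replicate 2. With library type as a term the calls of Gna11, Casr, Ust, Tcf7l2, Neu1, Sox6 and Ptprz1 were also lost.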
